A study of Mus musculus with 2 samples.

Results

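The 9 genes described here encode C-type lectins of myeloid cells: Cd209a and Cd209d of the CD209 family, the galactose-type lectins Clec10a and Mgl2, the activating receptors Clec4n (Dectin-2), Clec4e (Mincle) and Clec4d (MCL), and Clec4a1 and Clec4a3 of the DCIR family. They were chosen by symbol, 9 of the 28692 genes in the deposited matrices, and by a known result of these libraries: Cd209a was lower with tumor. The Cd209a comparison between the libraries is therefore a description, and the levels of the other members were also known when the set was chosen. Cells were placed in classes by genes other than the members, namely Flt3, Sirpa, Ly6c2, Ace, Csf1r, C1q genes and Kupffer cell or neutrophil genes. In GRCm38 with the GENCODE M21 annotation, Clec4a1, Clec4a3, Clec4n, Clec4d and Clec4e lie on chromosome 6 between 122921848 and 123289870, Cd209a and Cd209d on chromosome 8 between 3743397 and 3878555, and Mgl2 and Clec10a on chromosome 11 between 70130329 and 70170834.

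The study profiled mononuclear cells from livers of C57BL/6 mice by droplet-based single-cell RNA sequencing with a 5′ kit, which counts unique molecular identifiers (UMIs). Each of the 2 groups was a single library made from 3 pooled mice on day 14. The control group, labelled as having no tumor, received PBS into the spleen. The MC38 group received MC38 cells, a mouse colon carcinoma line, by the same route, which seeds tumor in the liver. The protocol text, the same for both samples, gives 500000 MC38 cells for the spleen followed by removal of that organ, and 3000000 MC38 cells under the skin. The sample titles carry SC for the control library and SC+liver for the MC38 library. Read with the protocol, both groups are entered here with 3000000 cells under the skin, and the control with 0 in the spleen. The control mice may thus have carried a tumor under the skin. Whether they did, and whether they lost the spleen, cannot be told from the labels. The labels give neither age nor sex. Liver cells were spun at low speed to remove hepatocytes before a density gradient. The library is the unit of replication, so no test between groups was possible. Intervals are 95% exact intervals for counts or shares and cover counting error only.

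C-type lectins of this kind bind carbohydrates on microbes and on host cells. Dectin-2, Mincle and MCL pair with the Fc receptor gamma chain and signal through Syk and CARD9 toward cytokine genes, whereas DCIR, the founding member of its family, carries an inhibitory motif. CD209a and the galactose-type lectins take up glycosylated ligands and are used as surface markers of type 2 conventional dendritic cells (cDC2) and of some macrophages.

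Promoter sequences were available for 7 of the 9 members in the RefSeq table for GRCm38.p6, with 8 start sites in all. Those of Cd209a, Clec4e, Clec4a1 and Clec4a3 are shown because these genes stand for the differing patterns below: a gene of cDC2 that was lower in the MC38 library, a gene of monocytes and neutrophils, and a neighbouring pair with like levels over the summed gates. Each run is the 250 bases before the start site, 5′ to 3′ on the gene's strand, chr8:3748985-3749234 (minus) for Cd209a, chr6:123289872-123290121 (minus) for Clec4e, chr6:122921598-122921847 (plus) for Clec4a1 and chr6:122952265-122952514 (plus) for the first of 2 Clec4a3 starts. Capitals mark matches on either strand to GAGGAA, a core bound by ETS factors such as PU.1, and to TTNNGNAA, a loose form of the C/EBP site.
Cd209a: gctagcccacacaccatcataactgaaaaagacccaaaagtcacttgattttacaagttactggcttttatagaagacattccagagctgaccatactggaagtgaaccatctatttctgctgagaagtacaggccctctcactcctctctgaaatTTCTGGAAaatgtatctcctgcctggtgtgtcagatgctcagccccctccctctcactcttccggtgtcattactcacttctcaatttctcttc
Clec4e: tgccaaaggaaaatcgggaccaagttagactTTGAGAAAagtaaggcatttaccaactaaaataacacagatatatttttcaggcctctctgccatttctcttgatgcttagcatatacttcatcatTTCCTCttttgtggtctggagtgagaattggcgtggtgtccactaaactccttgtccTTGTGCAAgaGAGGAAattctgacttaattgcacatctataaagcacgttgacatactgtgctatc
Clec4a1: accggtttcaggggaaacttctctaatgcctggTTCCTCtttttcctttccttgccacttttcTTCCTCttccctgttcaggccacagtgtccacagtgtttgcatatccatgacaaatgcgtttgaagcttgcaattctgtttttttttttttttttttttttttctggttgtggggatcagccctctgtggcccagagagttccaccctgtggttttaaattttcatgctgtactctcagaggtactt
Clec4a3: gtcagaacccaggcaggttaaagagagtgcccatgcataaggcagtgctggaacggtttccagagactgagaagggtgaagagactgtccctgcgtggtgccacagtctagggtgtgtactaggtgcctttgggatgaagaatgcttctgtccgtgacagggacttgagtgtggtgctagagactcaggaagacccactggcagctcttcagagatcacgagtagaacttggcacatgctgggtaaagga
GAGGAA was present on either strand in 6 of the 8 member promoters and in 23.3% of all 32851 promoters of the same length. TTNNGNAA was in 4 of the 8 and in 36.8% of all, and the AP-1 sequence TGAGTCA was in 0 of the 8 and in 4.46% of all. The Cd209a stretch held TTCTGGAA 94 bases before the start. The Clec4e stretch had 2 matches to each of the first 2 motifs, with TTGTGCAA 66 bases before the start and GAGGAA 56 bases before it. Clec4a1 had GAGGAA on the minus strand at 217 and 187 bases before its start, and the first Clec4a3 start had none of the 3 motifs. A match here is a description of letters in the window and not of a bound site.

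The control library had 14258 barcodes with 91617457 UMIs, and the MC38 library 19822 barcodes with 114421875 UMIs. Mitochondrial reads exceeded 10% of UMIs in 74.8% of control and 33.3% of MC38 barcodes, and after filters 3439 control and 11855 MC38 cells remained. Both libraries held 63 barcodes in common, 8 of them among kept cells. The part of the mitochondrial difference in the results was not tested. The gates held 94 control and 88 MC38 cells for cDC2, 350 and 2048 for classical monocytes, 104 and 87 for the Ace gate, 26 and 958 for macrophages, 66 and 267 for Kupffer cells, and 11 and 223 for neutrophils. Gates were narrow: 1937 control and 6979 MC38 cells met none. The Ace gate was drawn for nonclassical monocytes, but in the MC38 library the summed classical monocyte markers were at 5350 CPM (UMIs per 1000000 UMIs of the gate) and the nonclassical ones at 680 CPM, against 1040 and 2401 CPM in the control library, so it is called by its gene only. In 168 control and 783 MC38 B cells and in 683 and 422 T cells, which should lack the lectins, the same counts give the level that free or mixed-in RNA reaches.

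Cd209a encodes a mouse relative of human DC-SIGN that marks dendritic cells. In the cDC2 gate it was at 823 CPM (95% interval 769 to 879.9, 869 UMIs) in the control library and at 214 CPM (188 to 242, 251 UMIs) in the MC38 library. The intervals did not overlap, and the control level was 3.85 times the MC38 level (log2 ratio -1.94, interval -2.15 to -1.74). At least 1 UMI was seen in 89.4% of control cDC2 (interval 81.3 to 94.8%) and 52.3% of MC38 cDC2 (41.4 to 63.0%). Thinned to 1000 UMIs per cell, those shares were 47.9% and 18.2%, and median depths were 10589 and 12190.5 UMIs per cell. Cells with 10 or more Cd209a UMIs made up 37 of 94 control and 6 of 88 MC38 cells, and the median cell held 6.5 and 1 UMIs. The lower sum in the MC38 gate thus came with more cells at 0 and with fewer UMIs in the cells that had any, 4.5 against 8 at the median.

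**Figure D1:**
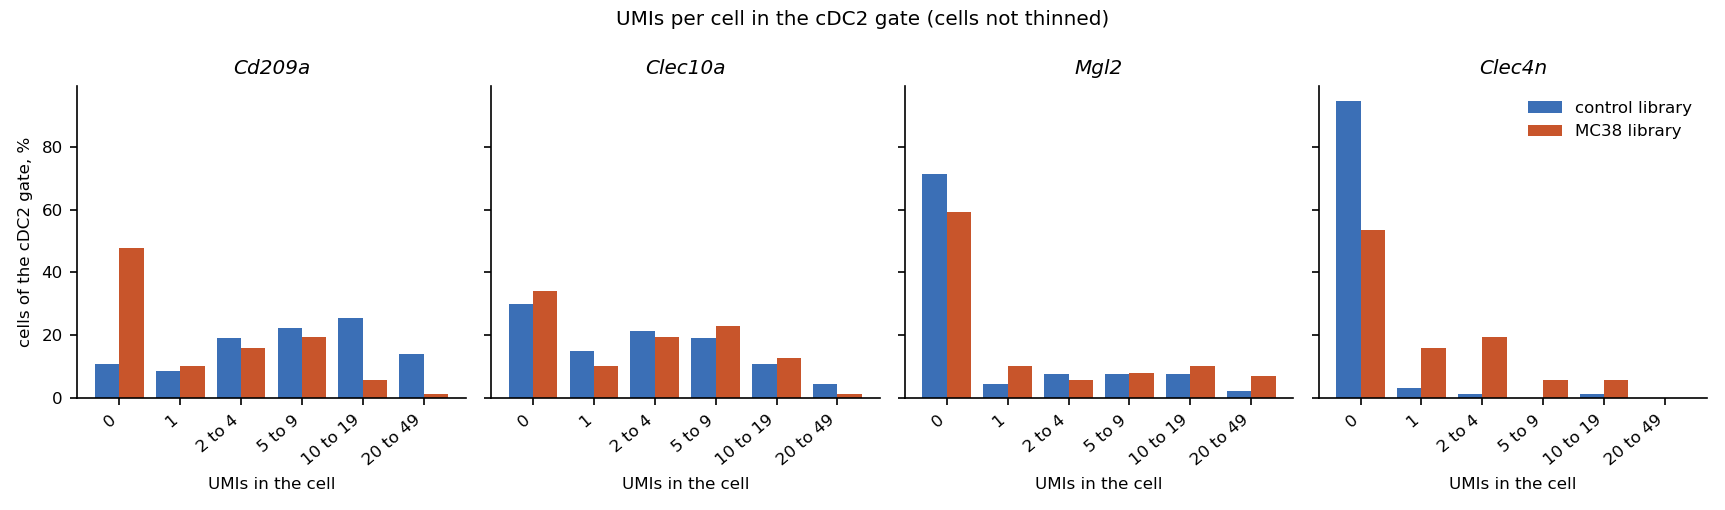
Percent of cells of the cDC2 gate (y axis) by number of UMIs in the cell (x axis, in bins) for 4 lectins, with blue bars for the control library (94 cells) and orange bars for the MC38 library (88 cells). For Cd209a 10.6% of control and 47.7% of MC38 cells held 0 UMIs, whereas for Clec4n the cells at 0 were 94.7% of control and 53.4% of MC38.

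In the other myeloid gates the Cd209a counts were small, and most overlapped those of the T cell gate. Classical monocytes had 41.3 CPM in the control library (34.7 to 48.8, 138 UMIs) and 1.96 CPM in the MC38 library (1.44 to 2.61, 47 UMIs), a log2 ratio of -4.40 (-4.91 to -3.91). The T cell gate had 39.2 CPM (34.0 to 44.9) and 2.45 CPM (0.986 to 5.05). The monocyte levels overlapped those of T cells in both libraries and were not told apart from them. Control monocytes did lie above the control B cells at 14.9 CPM (7.92 to 25.4). Shares of cells with a UMI were 6.86% and 0.781% in classical monocytes (median depths 9242 and 11312 UMIs) and 3.81% and 0.474% in T cells (6159 and 5101.5 UMIs). In the control monocytes 68.1% of the UMIs sat in 5 cells, and in the control T cells 55.3% did, with 55 UMIs in 1 cell. Control T cells with any UMI held 6 at the median, against 2.5 in control monocytes. The part of free RNA and of mixed barcodes in these levels was not tested. The Ace gate (18.8 CPM from 16 UMIs and 1.18 CPM from 1 UMI) and the Kupffer gate (22.4 CPM from 8 UMIs and 6.60 CPM from 12 UMIs) were below T cells or overlapped them in the same library. The control macrophage value of 83.2 CPM (45.5 to 139.6) lay above both lymphocyte gates but rested on 2 of 26 cells, 1 of which held 13 of the 14 UMIs, and the MC38 macrophages were at 3.06 CPM.

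Cd209d encodes SIGNR3, another lectin of the CD209 family. Its cDC2 level was 36.0 CPM (25.5 to 49.4) in the control and 33.2 CPM (23.6 to 45.4) in the MC38 library, and the intervals overlapped (log2 ratio -0.12, -0.80 to 0.57). In the MC38 gate 5 cells held 92.3% of these UMIs, and with stricter gates the log2 ratio was 2.04. In the cDC2-like cluster it pointed down, at 99.2 and 52.2 CPM (350 and 181 UMIs, log2 ratio -0.93, -1.19 to -0.66), so the direction for Cd209d in cDC2 depended on how the cells were chosen. Classical monocytes had 6.29 and 0.793 CPM, which was not above the 6.85 and 3.50 CPM of T cells. Kupffer cells had 14.0 CPM (5 UMIs) in the control and 7.15 CPM (13 UMIs) in the MC38 library, too few UMIs for a call. The Ace gate had 3.53 and 1.18 CPM (3 and 1 UMIs), and macrophages 0 and 0.0827 CPM (0 and 1 UMIs). Most Cd209d UMIs lay elsewhere: a cluster led by Siglech, Cox6a2 and Klk1, genes of plasmacytoid dendritic cells, had 333 CPM in the control library (374 cells) and 244 CPM in the MC38 library (160 cells). That cluster held 68.3% of all kept control Cd209d UMIs and 54.8% of those in the MC38 library, and its log2 ratio was -0.45 (-0.64 to -0.26).

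Clec10a and Mgl2 encode the paired mouse galactose-type lectins MGL1 and MGL2. Clec10a in cDC2 was at 410.2 CPM (373 to 451) in the control and 296 CPM (265 to 329) in the MC38 library, a log2 ratio of -0.47 (-0.68 to -0.26) that did not reach 2-fold. It was seen in 70.2% and 65.9% of the cells. Mgl2 went the other way, at 207 CPM (181 to 237) in the control and 294 CPM (264 to 327) in the MC38 library, a log2 ratio of 0.50 (0.25 to 0.75), and was seen in 28.7% and 40.9% of cells. Within 1 gate, therefore, Cd209a and Clec10a were lower and Mgl2 higher in the MC38 library by summed UMIs, with ratio intervals that left out no difference for each. Intervals of the shares of cells overlapped for Clec10a (59.9 to 79.2% and 55.0 to 75.7%) and Mgl2 (19.9 to 39.0% and 30.5 to 51.9%). The ratio intervals take UMIs as independent, yet 5 cells held 47.5% of control and 39.4% of MC38 Mgl2 UMIs. The Mgl2 direction did not hold for cells under a 5% mitochondrial limit, where its log2 ratio was -0.67, and Clec10a was level with stricter gates (0.01). In the larger cDC2-like cluster built without any lectin (329 control and 305 MC38 cells), Cd209a was at 633 and 190 CPM (log2 ratio -1.73, -1.86 to -1.61), Clec10a at 274 and 289 CPM (0.07, -0.05 to 0.20) and Mgl2 at 93.5 and 286 CPM (1.62, 1.43 to 1.80). The Mgl2 difference was larger there than in the gate, while Clec10a lay level between the libraries.

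Among monocytes and macrophages Clec10a was above the lymphocyte gates, where T cells had 13.1 and 7.71 CPM. Classical monocytes had 46.4 CPM (39.4 to 54.3) in the control and 20.1 CPM (18.4 to 22.0) in the MC38 library, a log2 ratio of -1.21 (-1.47 to -0.94) that was -0.65 under a 5% mitochondrial limit and -0.92 by cluster. Kupffer cells had 75.6 CPM (49.8 to 110.0) and 24.2 CPM (17.6 to 32.5), a log2 ratio of -1.64 (-2.37 to -0.90) that was -0.73 under a 30% mitochondrial limit. In macrophages the values were 77.2 CPM, from 13 UMIs in 5 cells, and 18.5 CPM (16.2 to 21.1). Clec10a was thus lower in the MC38 library in all 3 of these gates, and at 11.8 CPM in both libraries in the Ace gate, which is the level of T cells. Mgl2 in classical monocytes was at 11.1 and 0.751 CPM, with 89.2% of its 37 control UMIs in 5 cells, and the MC38 value was below the 7.36 CPM of MC38 T cells. Its levels were 35.7 CPM (6 UMIs) and 20.3 CPM in macrophages and 22.4 CPM (8 UMIs) and 20.3 CPM in Kupffer cells, with ratio intervals that included no difference. In MC38 Kupffer cells 89.2% of the Mgl2 UMIs were in 5 cells, and by cluster the log2 ratio was 3.65. The Ace gate had 0 and 8 Mgl2 UMIs.

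**Figure D2:**
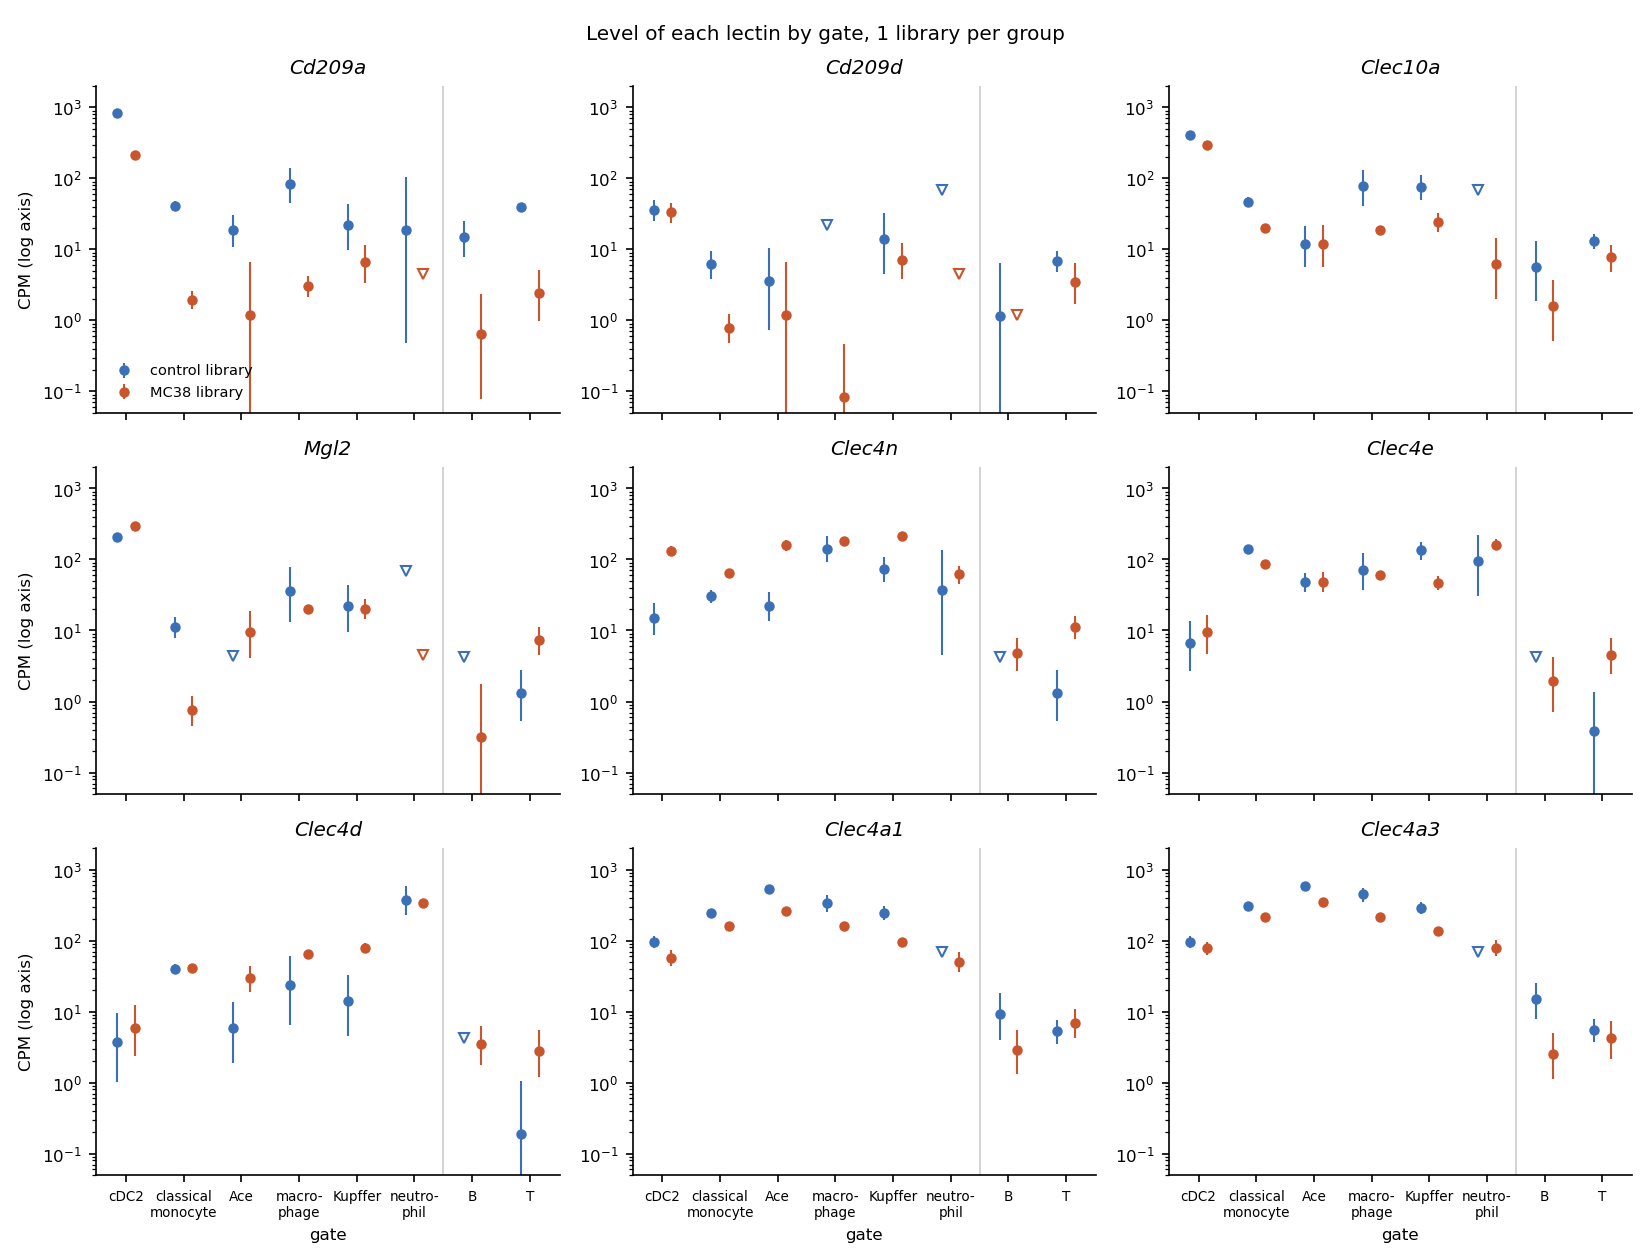
CPM on a log axis (y) in each gate (x) for the 9 lectins, with blue for the control and orange for the MC38 library; bars are exact 95% counting intervals, and open triangles mark the upper limit where no UMI was counted. The B and T gates right of the grey line show the level in cells that should lack the lectins; Cd209a in the control T cells, at 39.2 CPM, lies beside the classical monocytes at 41.3 CPM.

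Clec4n encodes Dectin-2, a receptor for mannose-rich ligands that signals through the Fc receptor gamma chain. In cDC2 it was at 15.2 CPM (8.66 to 24.6, 16 UMIs in 5 of 94 cells) in the control library and 130.4 CPM (111 to 153, 153 UMIs in 41 of 88 cells) in the MC38 library. The MC38 level was 8.60 times higher (log2 ratio 3.10, 2.36 to 3.95), and the intervals were far apart. Under a 5% mitochondrial limit the log2 ratio was 1.68. Levels in T cells were 1.33 and 11.2 CPM, below the cDC2 level of the same library. Summed macrophage markers in the cDC2 gate were also higher in the MC38 library, at 848 against 142 CPM over 7 markers, as were classical monocyte markers, at 1504 against 640 CPM over 6 markers, with Trem2 and Vcan at 0 in the control gate; their part in the result was not tested. The share of gate cells that fell in the cDC2-like cluster was 90.4% for the control library and 70.5% for MC38. Within that cluster alone Clec4n was at 8.50 and 117 CPM, a log2 ratio of 3.79 (3.25 to 4.37).

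Clec4n was at least 2-fold higher in the MC38 library in 4 of the 5 gates with enough cells. Classical monocytes had 30.2 CPM (24.6 to 36.7) and 63.7 CPM (60.6 to 67.0), a log2 ratio of 1.08 (0.78 to 1.38) that was 0.86 under a 5% mitochondrial limit and 0.76 after thinning to 1000 UMIs. The Ace gate had 22.4 CPM (13.5 to 34.9) and 159 CPM (133 to 188), a log2 ratio of 2.83 (2.13 to 3.6). Kupffer cells had 72.8 CPM (47.6 to 107) and 217 CPM (196 to 239.7), a log2 ratio of 1.58 (1.0 to 2.21) that was 0.90 by cluster, 0.84 after thinning and 0.54 as a mean over cells. Macrophages had 143 CPM (91.4 to 212) and 183 CPM (175 to 191), with a ratio interval of -0.22 to 1.0 that included no difference. In the control library macrophages were the gate with the highest Clec4n and in the MC38 library Kupffer cells were, although the control values of those 2 gates overlapped. A cluster led by Spp1, Cd14 and Mmp12, with 392 MC38 cells and 1 control cell, had 391 CPM and held 25.9% of all kept MC38 Clec4n UMIs.

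Clec4e encodes Mincle, which recognises mycobacterial glycolipids and a ribonucleoprotein of dying cells. Classical monocytes were at 141 CPM (129 to 155) in the control and 85.2 CPM (81.6 to 89.0) in the MC38 library, a log2 ratio of -0.73 (-0.87 to -0.58) below the 2-fold size. The direction did not hold when clusters replaced the gate, where the log2 ratio was 0.29. The control gate lay mostly in a cluster led by Ifi204, Slfn5 and Ifit2 (74.0% of its cells) and the MC38 gate in clusters led by F13a1, Vcan and Chil3 (52.6%) and by Chil3, Spink2 and Tgfbi (31.0%). Another 13.7% of the control monocytes and 2.73% of the MC38 ones were in a cluster led by the interferon-gamma targets Cxcl10, Cxcl9 and Gbp2, in which Clec4e was at 623 CPM in the control library (85 cells) and 225 CPM in the MC38 library (161 cells). That cluster held 543 of the 1008 kept control Clec4e UMIs (53.9%) and 472 of the 4091 kept MC38 ones. Its log2 ratio was -1.47 (-1.65 to -1.29). In Kupffer cells the values were 134 and 46.7 CPM, but 1 of the 66 control cells had 42 of the 48 UMIs, and with stricter gates the log2 ratio turned from -1.52 to 1.27. It was -0.81 under a 30% mitochondrial limit and -0.89 by cluster. The Ace gate was at 48.3 and 48.6 CPM, and macrophages at 71.3 CPM (12 UMIs) and 59.9 CPM, with overlapping intervals in both. In the control macrophages 1 cell had 10 of the 12 UMIs, and the log2 ratio turned from -0.25 to 2.78 with stricter gates (8.64 and 59.3 CPM) and to 0.54 as a mean over cells. cDC2 held 7 control and 11 MC38 UMIs of Clec4e, and neutrophils were at 93.9 CPM (5 UMIs) and 161 CPM. Classical monocyte markers in the classical gate were at 5921 CPM in the control library against 13585 CPM in the MC38 one, and neutrophil markers at 2140 against 7262 CPM, and their part in the result was not tested.

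Clec4d encodes MCL, which forms complexes with Mincle. Neutrophils were the gate with the highest Clec4d in both libraries, at 376 CPM (229 to 580.2, 20 UMIs in 11 cells) in the control and 341 CPM (302 to 383) in the MC38 library, and neither interval met that of the next gate. No ratio is drawn from 11 control neutrophils. Classical monocytes were level at 39.8 CPM (33.3 to 47.2) and 41.5 CPM (39.0 to 44.2), with a log2 ratio of 0.06 (-0.20 to 0.33). Kupffer cells had 14.0 CPM (5 UMIs) and 79.7 CPM (67.3 to 93.8), a log2 ratio of 2.51 (1.25 to 4.15), but by cluster it was -0.27. The Ace gate had 5.89 CPM (5 UMIs) and 29.6 CPM, a log2 ratio of 2.33 (0.92 to 4.07), and macrophages 23.8 CPM (4 UMIs in 1 cell) and 63.8 CPM, a log2 ratio of 1.43 that was 0.61 with called doublets kept. cDC2 held 4 and 7 UMIs. Erythroid markers in the Kupffer gate were at 8364 and 9942 CPM, NK cell markers at 1316 and 28.0 CPM, neutrophil markers at 89.6 and 2549 CPM and hepatocyte markers at 146 and 1202 CPM, and their part in the Kupffer values was not tested. A cluster led by Saa3, Prg4 and Alox15, with 73 MC38 cells and 1 control cell, had 322 CPM of Clec4d, and 90.4% of its MC38 cells had a UMI.

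Clec4a1 and Clec4a3 encode DCIR4 and DCIR3, receptors of the dendritic cell immunoreceptor family. Clec4a1 was highest in the Ace gate, at 524 CPM (476 to 575) in the control and 262 CPM (228 to 299) in the MC38 library, a control level 2.0 times the MC38 level (log2 ratio -1.0, -1.24 to -0.77). This value sits at the 2-fold limit and was -0.83 after thinning, -0.91 under a 30% mitochondrial limit and -0.97 after scaling by the median ratio. Clec4a3 in the same gate was at 596 CPM (545 to 650.1) and 346 CPM (307 to 388), a log2 ratio of -0.78 (-1.0 to -0.57). In classical monocytes Clec4a1 had 248 and 159.6 CPM (log2 ratio -0.64, -0.75 to -0.53) and Clec4a3 304 and 218 CPM (-0.48, -0.58 to -0.38). Both genes were also lower in the MC38 library in macrophages and Kupffer cells, with log2 ratios between -1.38 and -1.05, and in cDC2, where Clec4a3's interval of -0.73 to 0.12 included no difference. The gene pair was thus lower in 5 of 5 gates, but after thinning the macrophage value of Clec4a1 was 0.0225, and under a 5% mitochondrial limit the cDC2 value of Clec4a3 was 0.47. Under a 30% mitochondrial limit the macrophage values were -0.81 and -0.80, and with stricter gates the Kupffer values were -0.66 and -0.56, all short of 2-fold. By cluster the Kupffer value of Clec4a1 was -0.22 (-0.91 to 0.55), which included no difference. Stricter gates moved the cDC2 values the other way, to -2.50 for Clec4a1 and -1.69 for Clec4a3. In macrophages the classical monocyte markers were at 1699 CPM in the control library and 6577 CPM in the MC38 one, and the part of this in the results was not tested. The Ace gate drew on different clusters in each library: it was 71.2% a cluster led by Ace, Nr4a1 and Adgre4 in the control library, and 64.4% a cluster led by C1qb, Htra3 and Axl in the MC38 library. Inside the first of these clusters (126 control and 25 MC38 cells) Clec4a1 was at 535 and 188 CPM and Clec4a3 at 547 and 224 CPM.

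**Figure D3:**
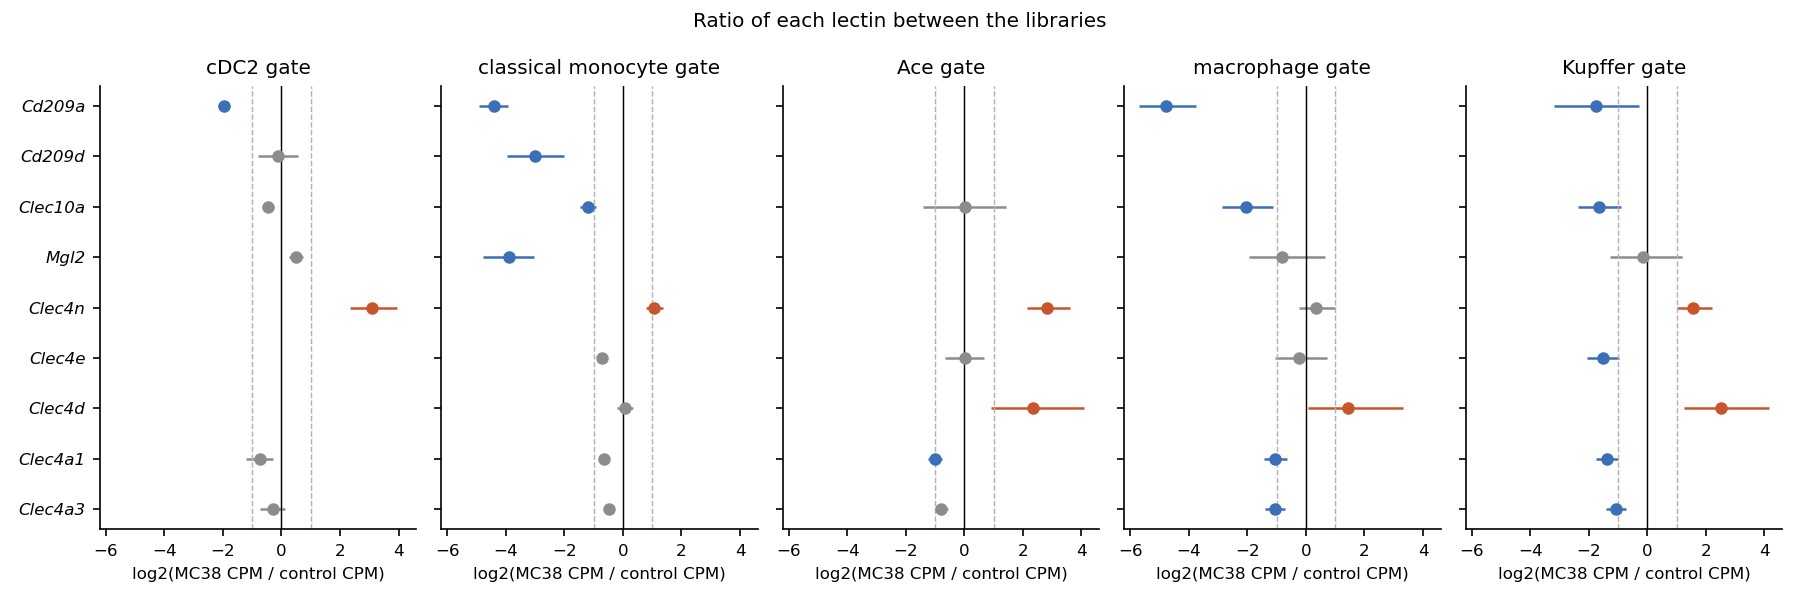
Log2 ratio of MC38 over control CPM (x axis) with its exact 95% counting interval for each lectin with at least 20 UMIs (y axis) in 5 gates; dashed lines mark 2-fold, blue points are 2-fold lower, orange points 2-fold higher and grey points in between. Cd209a lies left of the dashed line in 4 gates, from -4.77 to -1.76, and Clec4n right of it in 4, from 1.08 to 3.10.

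Counts of members can be read against all genes of a gate, where a gene was counted as higher or lower if its CPM differed at least 2-fold and it had at least 20 UMIs in both libraries together. In cDC2, 7 of 9 members had enough UMIs, 1 (Cd209a) was lower and 1 (Clec4n) higher, against 4.61% lower and 5.96% higher of 7805 genes. In classical monocytes 4 of 9 were lower and 1 higher, against 7.71% and 8.11% of 11210 genes. Of those 4, Cd209a, Cd209d and Mgl2 lay at or below the T cell level of the same library in at least 1 library, which leaves Clec10a. In the Ace gate 1 of 6 was lower and 2 higher, against 7.22% and 6.52% of 6899 genes. In macrophages 4 of 8 were lower and 1 higher, against 13.2% and 25.1% of 10450 genes. That gate also drew on different clusters: 42.3% of its control cells were in the Kupffer-like cluster 14 and 15.4% in the cDC2-like cluster 6, while 39.2% of its MC38 cells were in cluster 7, led by C1qb, Htra3 and Axl, and 25.2% in cluster 4, led by Chil3, Spink2 and Tgfbi. A further condition, added after seeing the data and for the macrophage gate only, was that the counting interval leave out no difference. The same counts of 4 and 1 then stood against 5.21% and 3.67%. These intervals take UMIs as independent, yet 1 control cell held 13 of the 14 Cd209a UMIs and 1 held all 4 of Clec4d. The condition therefore adds no weight to the counts. In Kupffer cells 5 of 8 were lower and 2 higher, against 8.24% and 12% of 8083 genes. Of the 5 lower, Cd209a and Clec4e changed sign with stricter gates (0.92 and 1.27). Of the 2 higher, Clec4d changed sign by cluster (-0.27). Cd209a rested on 8 control and 12 MC38 UMIs, and 1 control cell had 42 of the 48 Clec4e UMIs. The median log2 ratio of the members was -0.30 in cDC2, -0.73 in classical monocytes, 0.01 in the Ace gate, -0.93 in macrophages and -1.23 in Kupffer cells, beside -0.00, -0.03, -0.05, 0.10 and -0.03 over all genes counted. Among genes of 50 UMIs or more per library the median log2 ratio was -0.17 in Kupffer cells and between -0.06 and 0.02 in the other 4 gates. As Cd209a was part of the choice, its calls carry no weight in these counts. The medians include Cd209a wherever it had enough UMIs. The levels of the other members were also known at the choice, so the counts and medians only describe the set.

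**Figure D4:**
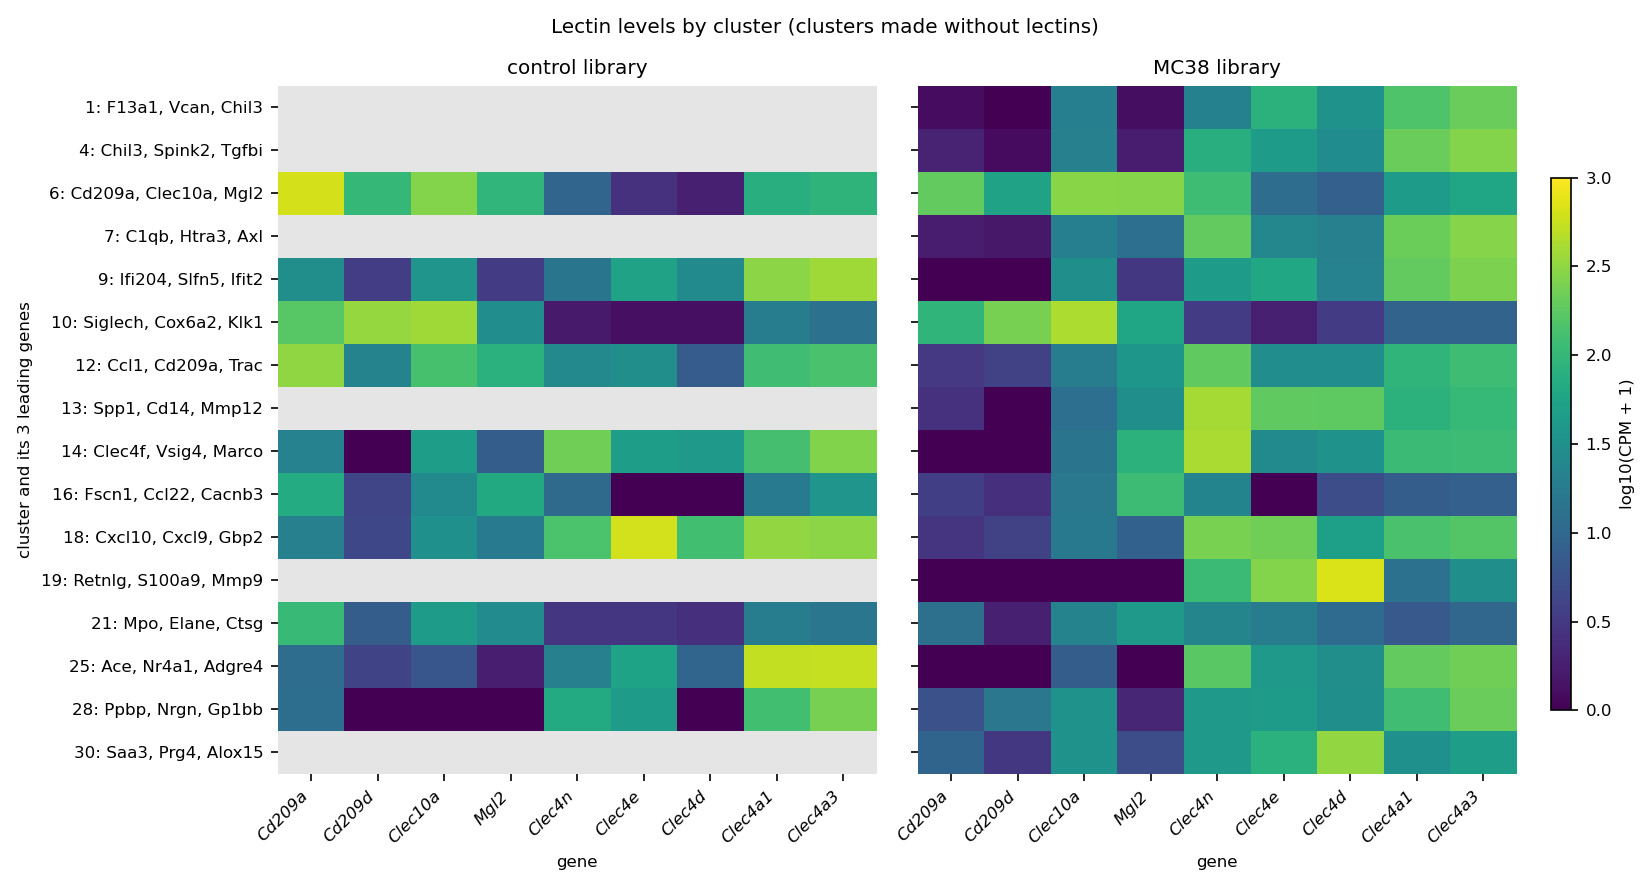
Color shows log10(CPM + 1) of each lectin (x axis) in 16 clusters (y axis, with number and 3 leading genes) of the control (left) and MC38 (right) library; clusters were made without any lectin, and grey rows have fewer than 20 cells in that library. Cd209a at 633 and Cd209d at 333 CPM stand out in control clusters 6 and 10, Clec4n at 391 CPM in MC38 cluster 13 and Clec4d at 669 CPM in MC38 cluster 19.

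Clusters also showed where the lectins sat outside the gates. Of all kept Cd209a UMIs, cluster 6 (cDC2-like) held 51.1% for the control library and 73.7% for MC38. Cluster 12, led by Ccl1, Cd209a and Trac and so joining T cell and dendritic genes, held 22.8% of them in the control library, at 317 CPM (168 cells), and had 2.12 CPM in the MC38 library (242 cells). Its Clec4n went from 25.2 CPM in the control to 183 CPM in the MC38 library. The median depth of cluster 12, at 17170 UMIs, was above that of cluster 6, at 10680 UMIs, and called doublets had been removed. In the plasmacytoid cluster Cd209a was at 164 and 91.1 CPM (log2 ratio -0.84, -1.15 to -0.55), and Clec10a at 375 and 422 CPM (0.17, 0.02 to 0.32). The cluster led by Fscn1, Ccl22 and Cacnb3, genes of mature dendritic cells, had 21 Cd209a UMIs in 44 control cells and 5 in 259 MC38 cells, all 21 in a single control cell, whereas its Mgl2 log2 ratio was 0.81 (0.15 to 1.55).

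Pairs of members were read in the same cells as a description. In cDC2, Cd209a and Clec10a were both seen in 66.0% of control cells, beside 62.7% if they were independent, and in 45.5% of MC38 cells, beside 34.5%. Cd209a and Clec4n were both seen in 23.9% of MC38 cDC2, beside 24.4% if independent, so cells with Clec4n were found with and without Cd209a. In classical monocytes Clec4e and Clec4d were both seen in 13.1% of control cells (7.22% if independent) and in 16.8% of MC38 cells (13.5%). Cells share depth, which raises joint detection of any 2 genes.

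Other lectins and the signaling partners came from lists chosen with earlier results of these libraries known. None of the 5 other CD209 family genes listed reached 20 UMIs in any gate. Of the 4 other lectins of the Dectin-2 and DCIR cluster, 2 had enough UMIs in each gate: Clec4b1, a DCAR receptor, was lower in the MC38 library in all 5 gates, at 129.8 and 12.8 CPM in cDC2 (log2 ratio -3.34, -4.22 to -2.57) and at 20.4 and 2.34 CPM in classical monocytes (-3.12, -3.66 to -2.59). Clec4a2, which encodes DCIR1, was within 2-fold in all 5. Among 19 other myeloid lectins, 2 of 7 were lower and 1 higher in cDC2, and 5 of 13 lower and 2 higher in classical monocytes. In the Ace gate 3 of 7 were lower and 3 higher, in macrophages 6 of 11 and 1, and in Kupffer cells 5 of 12 and 3. Over all genes counted, the lower and higher shares were 4.61% and 5.96% in cDC2 and 7.71% and 8.11% in classical monocytes. They were 7.22% and 6.52% in the Ace gate, 13.2% and 25.1% in macrophages, and 8.24% and 12% in Kupffer cells. Olr1, the scavenger lectin LOX-1, was higher in classical monocytes at 3.29 and 11.6 CPM (log2 ratio 1.82, 0.96 to 2.84). In Kupffer cells it was at 0 and 38.5 CPM (0 and 70 UMIs). Cd69, an early activation marker, was lower in classical monocytes at 32.6 and 6.68 CPM (-2.29, -2.65 to -1.92), and Clec2d, the ligand of NKR-P1 receptors, in the Ace gate at 256 and 103 CPM. The control macrophage gate also held the Langerhans and dendritic lectin Cd207 at 149 CPM, against 0.909 CPM in the MC38 library.

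The list for the route from the Fc receptor gamma chain through Syk to CARD9 had 10 genes, all with enough UMIs. None was 2-fold apart in cDC2, the Ace gate or macrophages. Of all genes counted, 4.61% were lower and 5.96% higher in cDC2, and 7.22% and 6.52% in the Ace gate. In macrophages the shares were 13.2% and 25.1%, so most genes were within 2-fold in each of these gates. In classical monocytes and in Kupffer cells 2 of 10 were lower, beside 7.71% and 8.24% of all genes counted. List medians lay between -0.51 and 0.07. Malt1, the paracaspase that acts with CARD9 and Bcl10, was at 58.4 and 22.2 CPM in classical monocytes (log2 ratio -1.39, -1.63 to -1.15). None of the 3 inhibitory phosphatases (Ptpn6, Ptpn11 and Inpp5d) was 2-fold apart in any of the 5 gates. A list of 3 genes is too short to be told apart from the shares over all genes. Of the 10 cytokine genes downstream of these receptors only Il1b had enough UMIs in cDC2, at 73.0 and 277 CPM (log2 ratio 1.92, 1.56 to 2.3). Macrophage markers in the cDC2 gate were at 142 and 848 CPM and classical monocyte markers at 640 and 1504 CPM. Their part in the Il1b value was not tested. In classical monocytes 2 of 5 were lower and none higher, beside 7.71% and 8.11% of all genes counted. Tnf was at 20.4 and 4.67 CPM there (-2.12, -2.57 to -1.67). Cxcl2, a neutrophil chemoattractant, was higher in the Ace gate at 9.42 and 74.6 CPM (2.99, 1.92 to 4.26). In macrophages 4 of 5 cytokine genes were lower, with Ccl4 at 1058 and 23.9 CPM. The fifth, Cxcl2, was higher at 0 and 50.1 CPM (0 and 606 UMIs, lower limit of the log2 ratio 1.19). Of all genes counted in macrophages, 13.2% were lower and 25.1% higher. In the same gate NK cell markers were at 475 CPM in the control library and 57.5 CPM in the MC38 one, and T cell markers at 178 and 15.2 CPM, and their part in the cytokine values was not tested.

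Of the 13 listed transcription factors of dendritic and monocyte fates, 12 had enough UMIs in each gate. In cDC2, 1 was lower and 4 higher, beside 4.61% and 5.96% of all genes counted. The lower one, Klf4, needed for part of the cDC2 lineage, was at 271 and 133 CPM (log2 ratio -1.03, -1.32 to -0.74). Among the higher ones Cebpb was at 24.6 and 68.2 CPM (1.47, 0.81 to 2.17) and Irf8 at 73.0 and 179 CPM (1.29, 0.91 to 1.69). In classical monocytes 4 were lower and 1 higher, beside 7.71% and 8.11% of all genes counted. Irf4 was lower there, at 47.3 and 7.05 CPM (-2.75, -3.07 to -2.42). Irf4 went the other way in the Ace gate, at 7.07 and 27.2 CPM (1.95, 0.61 to 3.53). Nr4a1, required for nonclassical monocytes, was lower in the Ace gate at 483 and 95.9 CPM (-2.33, -2.69 to -1.98). This was not particular to that gate. Log2 ratios of Nr4a1 were -2.39 in macrophages, -2.13 in Kupffer cells, -1.20 in classical monocytes and -0.98 in cDC2.

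Across the 15 gate-by-library points with at least 20 cells, likeness was measured as Pearson's r of log2(CPM + 10) over 7850 genes, and it is descriptive because points share libraries and depth. Clec4a1 and Clec4a3 were each other's nearest gene, with r = 0.99. Clec10a and Mgl2 were also each other's nearest, with r = 0.93, and both were highest in the cDC2 gate of each library. Cell by cell in cDC2, both were seen in 24.5% of control cells, beside 20.2% if independent. The MC38 values were 26.1% and 27.0%. Nearest to Cd209a were Fbrsl1 (0.95), Phf11a (0.92) and Tspan33 (0.91), while nearest to Cd209d were Ddr1 (0.95), Srgap3 (0.94) and Prss30 (0.93). For Clec4e they were Tnfaip2 (0.98), Hk3 (0.97) and C3 (0.95), for Clec4n Camk1 (0.94), Tbxas1 (0.93) and Mmp14 (0.93), and for Clec4d Alas1 (0.94), Lilr4b (0.93) and Rab6a (0.93).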

How the data were processed

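The deposited matrices hold counts of UMIs for 28692 genes, per the file headers and as whole-number values. The submitters' processing notes give the build GRCm38.p6 and name Seurat 2.3.4 and R 3.6.0 besides Cell Ranger 2.2, bcl2fastq and STAR, and the matrix header names software version 3.0.2. Reads were not analysed here.

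Kept barcodes had 200 genes or more and no more than 10% of UMIs in 13 mitochondrial genes. The tools were matplotlib 3.10.9, scipy 1.17.1, igraph 0.11.9, scanpy 1.11.5, pandas 2.3.3, numpy 2.4.6 and Python 3.11.15. Scrublet calls (expected rate 0.008 per 1000 barcodes) removed 617 control and 1727 MC38 barcodes as doublets. Cells entered the gates by raw UMIs of genes that are no members. UMIs were summed per gate and library, divided by the gate's total to give CPM, and compared as log2 ratios with exact conditional 95% Poisson intervals, or exact binomial intervals for shares. PCR and pooling error are not covered. Gates with under 20 cells in a library gave no ratio. The calculation was tested on simulated data. Clusters (2000 variable genes, 30 principal components, 15 neighbours, Leiden resolution 1) were made without the lectins and named from fixed markers.

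The members, gates and lists were chosen with earlier results of these data known. All members are named, and other names come from, for each list and gate, the gene furthest up and furthest down among those 2-fold apart with an interval that left out no difference. Ptpn6, Ptpn11, Inpp5d and Clec4a2, as members of small lists, and Cebpb and Irf8, chosen after their values were seen, are named outside that rule, and so are the clusters, which were picked after their values were seen. Likeness names come from the 3 nearest genes of a member. Clec7a, Clec6a and Cebpd were not analysed here, and 1 transcription factor that the naming rule picks is not reported here. Alternatives were doublets kept, 500 genes, 5% or 30% mitochondrial limits, stricter gates, clusters, cells thinned to 1000 UMIs, the mean over cells, and scaling by the median ratio.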

Additional observations from a re-analysis of the deposited data

How the results depend on the processing

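Over 308 recomputed member ratios, 240 stayed within their counting interval, 64 left it with no turn of a 2-fold difference, and 4 that had differed 2-fold changed sign. The settings differed widely. With doublets kept, with 500 genes and with scaling by the median ratio, 38 of 38 stayed. It was 36 of 38 at 30%, 32 of 38 as a mean over cells and 23 of 36 with stricter gates. Only 16 of 31 stayed after thinning, 9 of 22 at 5% and 10 of 29 by cluster. Of 174 values for members that differed 2-fold, 170 kept their sign and 140 their size. For Cd209a in cDC2 the log2 ratio was -1.72 under a 5% mitochondrial limit, -1.73 by cluster and -1.59 after thinning to 1000 UMIs, and in classical monocytes it was -3.79, -5.81 and -3.07 under the same 3 settings and -3.82 as a mean over cells. Clec4e in classical monocytes was at -1.08, 0.29 and -0.51 under those 3, and Clec4n there at 1.70 by cluster and 0.76 after thinning. The members' median became -0.84 in cDC2 and 0.18 in Kupffer cells with stricter gates, -0.27 in Kupffer cells by cluster, and after thinning -0.55 in classical monocytes, -0.83 in the Ace gate and -1.86 in macrophages. Some ratios short of 2-fold also turned, among them Mgl2 in cDC2 at 5% (-0.67) and Clec4e in macrophages with stricter gates (2.78). Of 2-fold differences, signs turned for Cd209a (0.92) and Clec4e (1.27) in Kupffer cells with stricter gates, for Clec4d in Kupffer cells by cluster (-0.27), and for Clec4a1 in macrophages after thinning (0.0225). The causes were not tested. Macrophages gave no value by cluster (19 control cells) or at 5% (9), and Kupffer cells none at 5% (12). Few control cells limit the neutrophil (11, no ratio), macrophage (26) and Kupffer (66) gates. No paired analysis was possible because each group has 1 library.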
